A study of Mus musculus with 20 samples.

Results

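The guanylate-binding protein (Gbp) genes of mouse skin were followed from normal skin (NS) through actinic keratosis (AK), a precancerous lesion of sun-exposed skin, to cutaneous squamous cell carcinoma (cSCC). The rule took the rows of the gene count table whose symbol was one of Gbp2 to Gbp11, and 8 of these 10 symbols had a row among 22090 rows. Gbp10 was not analysed here. Gbp11 was matched only by a row spelled in capitals, GBP11, which was listed at 0 in all 20 samples, so the values below are those of Gbp2, Gbp3, Gbp4, Gbp5, Gbp6, Gbp7, Gbp8 and Gbp9.

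The samples were back skin of Hairless SKH-1 mice, 8 females in all, of which 4 were exposed to ultraviolet light and 4 were not. The sample labels list an age of 7 months. The mice were older when skin was taken, since in the study's methods that age precedes a course of irradiation lasting many weeks. There were 8 NS, 8 AK and 4 cSCC samples, and the AK and cSCC tissues came from the 4 irradiated mice. By the study's methods 4 of the NS samples came from irradiated mice and 4 from unirradiated mice. The labels tied no sample to a mouse, so NS was 1 group and the samples were treated as independent. The p-values may be too small where samples of 1 group shared a mouse, and too large where the compared groups shared mice. The AK samples were not divided by grade.

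Guanylate-binding proteins are large GTPases that interferon gamma induces strongly, with Irf1 among the transcription factors involved, and that type I interferons induce more weakly. They gather on the vacuoles and membranes of intracellular microbes, help to break them open, and feed inflammasome activation in macrophages. In skin, keratinocytes, endothelial cells and leukocytes can all make them when interferon is present. In whole tissue, fewer cells of a type and less RNA per cell cannot be told apart.

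The mouse genes lie in 2 clusters. On the GRCm38 build with GENCODE annotation, the cluster on the plus strand of chromosome 3 holds Gbp5 (chr3:142493978-142522344), Gbp7 (chr3:142530342-142550149), Gbp3 (chr3:142560026-142573209), Gbp2b and Gbp2 (chr3:142620602-142638008) within 144 kb. The cluster on the minus strand of chromosome 5 holds Gbp8 (chr5:105014150-105139540), Gbp9 (chr5:105077630-105139539), Gbp4 (chr5:105115767-105139586), Gbp10, Gbp6 (chr5:105270702-105293698) and Gbp11 within 332 kb. Gbp2b, the gene beside Gbp2, was not analysed here. The annotated spans of Gbp4, Gbp8 and Gbp9 overlap on 1 strand, so the division of reads among these 3 genes is uncertain. Gbp6 shares 40.4% of the 75-base words of its transcripts with Gbp10 and 67.3% with any other annotated transcript, mostly those of Gm43302, a model that overlaps both genes, so the counts of Gbp6 may hold reads of its near copies or lack reads that fit several places. For the other 7 genes this share was between 0 and 8.04%.

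The promoters are shown because interferon acts on these genes through 2 short elements. The interferon-stimulated response element (ISRE) is bound by Irf1 and its relatives, and the gamma-activated site (GAS) is an element of genes that respond early to interferon gamma. RefSeq held promoter windows for 4 of the 8 genes (5 windows, with 2 for Gbp3), all from chromosome 3. The 250 bases before the RefSeq start are printed 5′ to 3′ on the plus strand of GRCm38.p6 for Gbp2 (chr3:142620413-142620662), Gbp7 (chr3:142530086-142530335), Gbp3 (chr3:142559794-142560043) and Gbp5 (chr3:142496684-142496933). Capitals mark every match, on either strand, to the ISRE core GAAANNGAAA or the GAS core TTCNNNGAA.
Gbp2: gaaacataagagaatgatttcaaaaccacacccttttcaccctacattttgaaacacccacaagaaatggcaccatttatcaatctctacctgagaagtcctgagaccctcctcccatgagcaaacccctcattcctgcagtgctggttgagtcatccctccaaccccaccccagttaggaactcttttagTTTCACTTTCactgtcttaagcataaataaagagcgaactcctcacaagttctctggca
Gbp7: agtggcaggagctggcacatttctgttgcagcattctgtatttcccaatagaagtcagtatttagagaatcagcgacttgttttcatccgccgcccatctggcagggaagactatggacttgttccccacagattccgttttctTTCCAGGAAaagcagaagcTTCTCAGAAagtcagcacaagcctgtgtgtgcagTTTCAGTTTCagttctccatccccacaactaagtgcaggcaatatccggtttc
Gbp3: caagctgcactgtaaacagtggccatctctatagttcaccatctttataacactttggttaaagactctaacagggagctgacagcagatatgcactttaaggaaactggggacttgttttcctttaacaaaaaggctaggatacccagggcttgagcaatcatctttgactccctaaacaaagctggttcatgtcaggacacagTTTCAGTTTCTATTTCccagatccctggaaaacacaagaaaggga
Gbp5: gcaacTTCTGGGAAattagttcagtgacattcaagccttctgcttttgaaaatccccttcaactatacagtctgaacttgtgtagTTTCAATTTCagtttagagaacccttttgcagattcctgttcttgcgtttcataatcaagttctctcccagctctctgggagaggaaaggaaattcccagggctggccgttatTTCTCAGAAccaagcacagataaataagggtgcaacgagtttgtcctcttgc

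All 4 genes had an ISRE core in 1 of their windows, and Gbp5 and Gbp7 also had GAS cores. In Gbp2 the ISRE core began 59 bases before the start, in Gbp7 53 bases before it, and in Gbp5 165 bases before it. In Gbp3 a pair of overlapping ISRE cores began 45 and 39 bases before the start, and the second Gbp3 window held neither element. The GAS cores of Gbp7 began 106 and 87 bases before the start and those of Gbp5 245 and 52 bases before it. Over all 32851 promoter windows of the same length of 300 bases, 3.44% held the ISRE core, 8.3% the GAS core and 0.454% both. These matches describe letters in a window and do not show that a factor was bound.

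Depth varied widely. Total counts were 1624325 to 6295575 in NS, 867219 to 14055206 in AK and 775750 to 7095102 in cSCC, and 3 counts corresponded to between 0.225 and 3.78 CPM (counts divided by the library total after scaling by the trimmed mean of M-values, TMM, in the usual unit of counts per 1000000). Haemoglobin genes took 46.8% of the counts of cSCC 18 and 14.3% of those of AK 14, against 0.0917% to 6.02% elsewhere. The summed CPM of 8 heart muscle markers was 54740 in cSCC 21 against a cSCC median of 128, and that of 8 lung epithelium markers was 36018 in cSCC 20 against a cSCC median of 10.3. All 9 keratinocyte markers were detected in every group, with summed CPM of 8372 to 19479 in NS, 9963 to 18123 in AK and 3815 to 18417 in cSCC.

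Taken as a sum, the 8 genes had the lowest mean level in NS, the highest in AK and an intermediate one in cSCC. Summed over the genes, NS held 226 ± 136 CPM (SD, n = 8). The AK sum was 768 ± 438 CPM (SD, n = 8), and the cSCC sum was 474 ± 231 CPM (SD, n = 4). AK 13 held the highest sum of all samples, 1762 CPM, and all 8 genes were highest there among the AK samples. NS 7 was the highest NS sample with 461 CPM and NS 5 the lowest with 75.4 CPM, so a single NS sample exceeded the lowest AK sample, AK 16, at 361 CPM. The NS samples were not alike. The sum was 152 CPM in NS 1, 97.0 in NS 2, 127 in NS 4 and 75.4 in NS 5. It was 269 CPM in NS 6, 461 in NS 7, 345 in NS 8 and 283 in NS 9. The reason was not tested.

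Among the genes of chromosome 3, Gbp2 was the most abundant. Gbp2 encodes a protein that is anchored to membranes by a lipid tail and is among the first to reach the vacuoles of Toxoplasma. Its level ran from 23.8 CPM in NS 5 through a median of 58.4 to 222 CPM in NS 7, and in AK from 103 CPM in AK 16 through a median of 265 to 700.1 CPM in AK 13. In cSCC it was 138 CPM in cSCC 18, 319.9 in cSCC 19, 243 in cSCC 20 and 28.3 in cSCC 21. AK and NS overlapped, with 5 of 8 AK samples above every NS sample, and the cSCC samples spanned from the low end of NS to the upper part of AK.

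Gbp7, linked to the assembly of the phagocyte oxidase, was the chromosome 3 gene whose AK and NS samples did not overlap. It ranged from 24.1 to 97.4 CPM in NS with a median of 47.1, and from 105 to 318 CPM in AK with a median of 169. The lowest AK sample was just above the highest NS sample. In cSCC its level was 86.8 CPM in cSCC 18, 178 in cSCC 19, 84.2 in cSCC 20 and 34.7 in cSCC 21, so 3 of 4 cSCC samples lay below every AK sample.

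Gbp3, a further member with roles in cell-autonomous defence, was less abundant. It ranged from 4.05 to 28.3 CPM in NS with a median of 13, and from 16.4 to 85.6 CPM in AK with a median of 37.0. The cSCC values were 25.7, 96.2, 23.9 and 34.1 CPM in cSCC 18 to 21. Every AK and every cSCC sample was above the NS median, although both groups overlapped NS.

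Gbp5, which promotes assembly of the Nlrp3 inflammasome, was the lowest of the chromosome 3 genes. It ranged from 2.37 to 14.7 CPM in NS with a median of 7.85, and from 5.04 to 34.1 CPM in AK with a median of 17.4. In cSCC it was 7.64, 33.8, 9.1 and 4.8 CPM in cSCC 18 to 21, so cSCC 19 alone rose above the NS range.

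On chromosome 5, Gbp6 was the most abundant, with the caution on shared sequence above. It ranged from 3.77 to 79.0 CPM in NS with a median of 31.6, and from 33.0 to 309 CPM in AK with a median of 113. The cSCC values were 54.9, 63.7, 37.5 and 109.7 CPM in cSCC 18 to 21. Among the cSCC samples Gbp6 was highest in cSCC 21, the sample with the heart muscle markers, while every other Gbp gene was highest in cSCC 19.

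Gbp4, which has been described as a brake on Irf7, ranged from 2.32 to 29.0 CPM in NS with a median of 11.1. In AK it ranged from 20.7 to 140.02 CPM with a median of 45.2, and in cSCC it was 24.3, 45.3, 28.4 and 30.8 CPM in cSCC 18 to 21. All 8 AK and all 4 cSCC samples were above the NS median, and the cSCC values were much closer together than those of AK.

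Gbp9 and Gbp8, the least studied of the 8 genes, differed in spread. Gbp9 ranged from 3.19 to 19.2 CPM in NS with a median of 15.9, from 21.4 to 78.5 CPM in AK with a median of 27.4, and was 20.8, 27.2, 26.2 and 20 CPM in cSCC 18 to 21. Every AK sample and every cSCC sample was therefore above every NS sample, but by a narrow gap. The highest NS sample, NS 6, held 34 counts of Gbp9, and the lowest AK sample, AK 12, held 17. Such a separation was shown by 0.394% of all genes tested in AK vs NS and by 2.7% in cSCC vs NS. Gbp8 ranged from 0.225 CPM in NS 5, a single count, to 10.6 CPM in NS with a median of 7.73, and from 8.46 to 97.0 CPM in AK with a median of 22.5. In cSCC, Gbp8 was 6.25, 34.3, 12.5 and 5.46 CPM in cSCC 18 to 21, on both sides of the NS median.

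**Figure D1:**
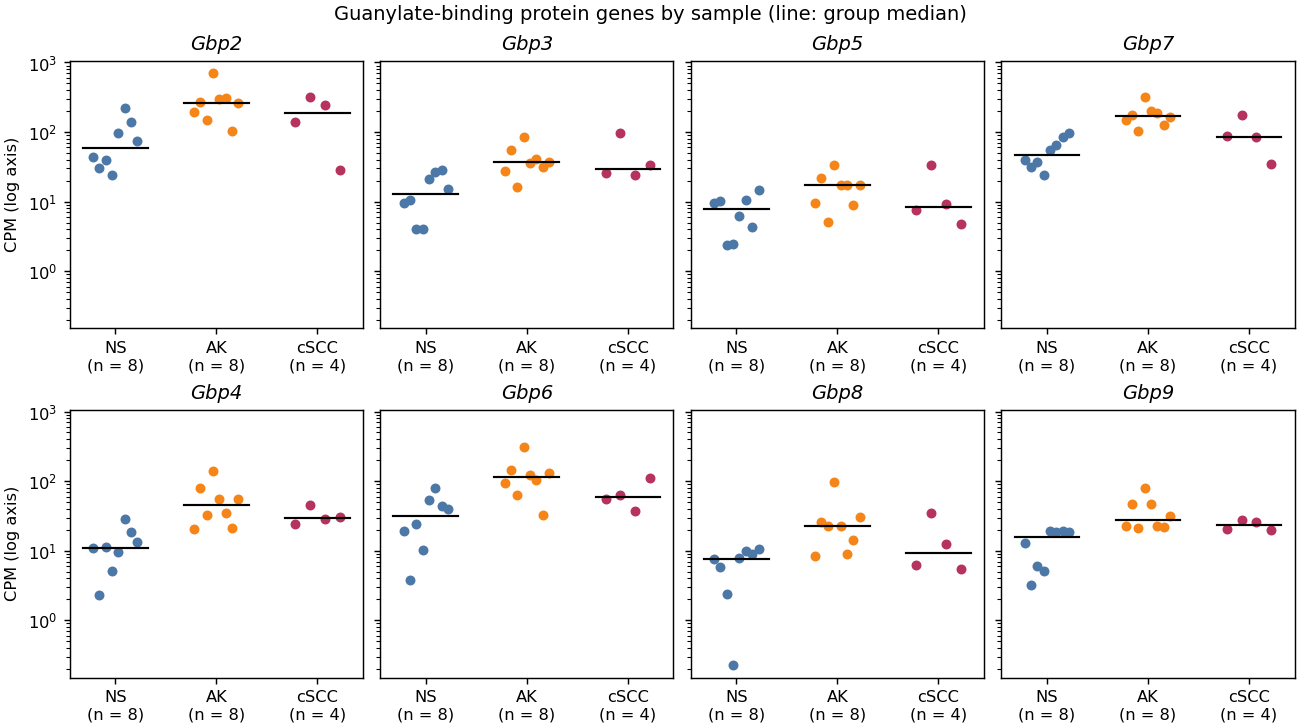
Level of each of the 8 genes in every sample, in CPM on a log axis, with chromosome 3 genes in the upper row and chromosome 5 genes in the lower row. Points are samples of NS (n = 8), AK (n = 8) and cSCC (n = 4), and lines are group medians. For Gbp7 and Gbp9 all AK points lie above all NS points.

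To compare genes with each other, CPM was divided by the length of all annotated exons of a gene. In AK the level per length was 114 ± 72.5 CPM per kb for Gbp2, 31.7 ± 11.5 for Gbp7, 21.1 ± 13.9 for Gbp6, 12.6 ± 6.45 for Gbp3, 8.36 ± 8.33 for Gbp8, 7.33 ± 5.29 for Gbp4, 7.07 ± 3.9 for Gbp9 and 2.49 ± 1.37 for Gbp5 (SD, n = 8). Gbp2 exceeded Gbp7 in all 20 samples, Gbp7 exceeded Gbp6 in 18, Gbp6 exceeded Gbp3 in 15, Gbp3 exceeded Gbp8 in 18 and Gbp9 exceeded Gbp5 in 19. The order within Gbp8, Gbp4 and Gbp9 was not resolved, since Gbp8 exceeded Gbp4 in 10 of 20 samples and Gbp4 exceeded Gbp9 in 9 of 20.

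The first comparison was AK with NS, the precancerous lesion against normal skin. All AK samples came from irradiated mice, but by the study's methods only part of the NS samples did. Lesion and irradiation therefore cannot be told apart in this comparison. Most of the genes rose: edgeR's quasi-likelihood test called 7 of the 8 higher in AK and none lower, at an adjusted p under 0.05 and a fold change above 1.5. Of all 11677 genes tested, 2.26% were called higher in AK and 2.38% lower. The median log2 fold change of the 8 genes was 1.74, against -0.04 over all genes tested.

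Gbp4 had the largest log2 fold change, 2.12 ± 0.44 (SE, adjusted p = 0.019), and Gbp8 followed with 2.09 ± 0.54 (SE, adjusted p = 0.0336). Gbp6 rose by 1.87 ± 0.47 on the log2 scale (SE, adjusted p = 0.0316) and Gbp2 by 1.77 ± 0.44 (SE, adjusted p = 0.0291). The largest values, those of Gbp4, Gbp8 and Gbp6, belonged to chromosome 5 genes, and Gbp2 had the largest value on chromosome 3. Gbp7 rose by 1.71 ± 0.27 on the log2 scale and had the smallest adjusted p of the 8, 0.00966. Gbp9 rose by 1.51 ± 0.38 (SE, adjusted p = 0.0297) and Gbp3 by 1.47 ± 0.39 (SE, adjusted p = 0.0364). Gbp5 was not called, with a log2 fold change of 1.13 ± 0.39, a 95% interval of 0.31 to 1.94 and an adjusted p of 0.0877, while DESeq2 gave it an adjusted p of 0.0458. With limma voom and sample weights Gbp8 was not called (adjusted p = 0.0838). For the 7 called genes these values correspond to 2.77-fold for Gbp3 up to 4.34-fold for Gbp4, and Gbp5 was at 2.19-fold. Gbp7 and Gbp9 were the 2 genes whose groups did not overlap, a separation that 0.394% of all genes tested showed in this direction.

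**Figure D2:**
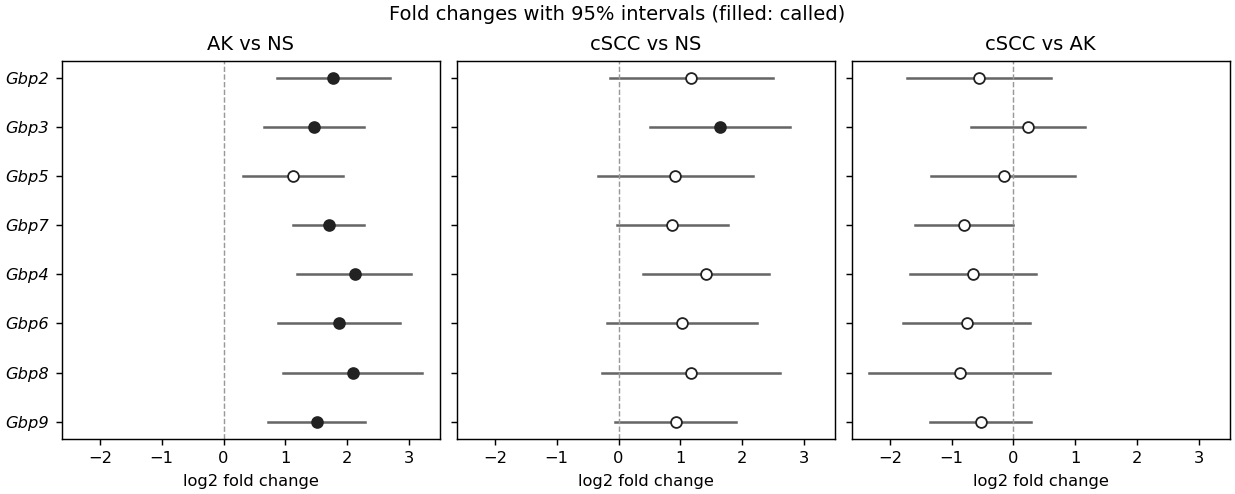
Log2 fold change of each gene in the 3 comparisons (points) with 95% intervals (lines), from edgeR's quasi-likelihood fits. Filled points are called genes: 7 in AK vs NS, Gbp3 alone in cSCC vs NS, and none in cSCC vs AK.

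The number of called genes depended on single samples, while all 8 fold changes stayed positive. It fell to 2 without NS 1, NS 4 or AK 13 and to 3 without NS 5. Without NS 2 or AK 15 it was 4. It stayed at 7 without NS 6, NS 7 or NS 8 and was 8 without NS 9. NS 1, NS 2, NS 4 and NS 5 were the NS samples with the lowest Gbp sums. Gbp4 and Gbp7 were called in all 16 of these fits, and without AK 13 the log2 fold change of Gbp8 was 1.48. The number of genes called over the whole table moved as well, from 542 to 164 without NS 4 and to 181 without AK 13. In 1 fit over all 20 samples, where the cSCC samples entered the estimate of the spread, 9 genes of the whole table were called between AK and NS, and Gbp7 was the member among them (adjusted p = 0.0402).

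**Figure D3:**
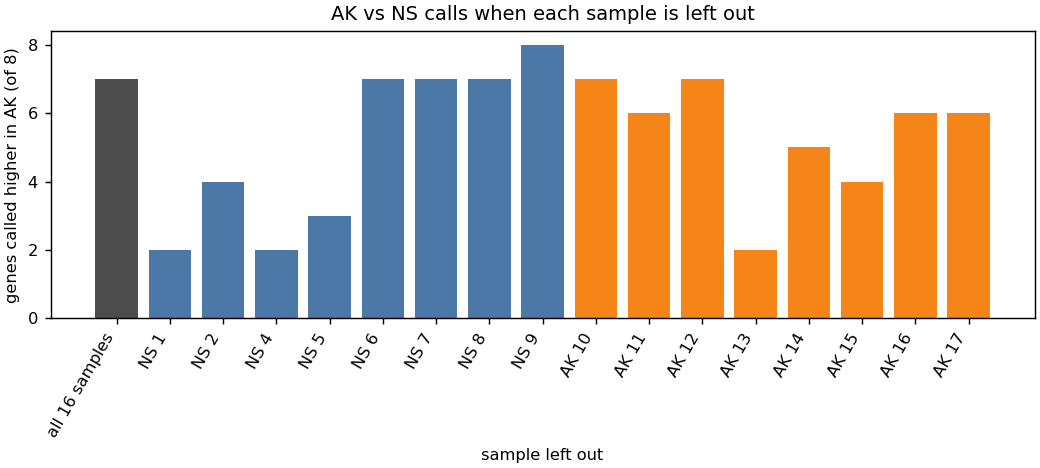
Number of the 8 genes called higher in AK than in NS, with all 16 samples (grey) and after leaving out each NS sample (blue) or AK sample (orange). The number ranges from 2 to 8.

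The upstream genes of the pathway were read beside them. Ifng, the ligand itself, was close to the detection limit with 0.93 ± 0.907 CPM in the 8 NS samples, 4.46 ± 2.6 CPM in the 8 AK samples and 1.23 ± 1.43 CPM in the 4 cSCC samples (SD). All 8 AK samples were above the NS median for Ifng, but the gene did not pass the filter on low counts, and with no filter its log2 fold change of 2.18 ± 0.68 between AK and NS had an adjusted p of 0.0865. None of the 6 interferon receptor genes was called in AK vs NS. Genes of interferon signalling that were called higher included Stat2 by 1.14 ± 0.23, Irf1 by 0.88 ± 0.19 (both adjusted p = 0.019) and the kinase Jak2 by 0.77 ± 0.17 (adjusted p = 0.0215) on the log2 scale. No gene of the signalling list was called lower. Among 6 inhibitors of the pathway, 1 was called, Usp18, which acts on the type I receptor, at 1.56 ± 0.43 (adjusted p = 0.0409).

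Several other interferon-inducible genes were called too. Of 12 immunity-related GTPases, a second family that acts on microbial vacuoles together with the Gbp proteins, 7 were called higher and none lower, with a list median of 1.52. The largest were Tgtp1 at 2.31 ± 0.49 and Tgtp2 at 2.20 ± 0.48 (both adjusted p = 0.019), near-identical genes whose reads may be split, then Iigp1 at 2.09 ± 0.48 (adjusted p = 0.0231) and Ifi47 at 1.90 ± 0.44 (adjusted p = 0.0238). Gvin1, a very large interferon-inducible GTPase, was the 1 of 5 other GTPases called, at 1.53 ± 0.33 (adjusted p = 0.019). Of 15 genes typical of type I interferon, 8 were called higher and none lower, with a median of 1.5, led by Ifi44 at 2.90 ± 0.66 (adjusted p = 0.0236). Among 11 chemokine and antigen presentation genes, 2 were called, the chemokines Cxcl9 at 2.36 ± 0.57 (adjusted p = 0.0278) and Cxcl10 at 2.26 ± 0.64 (adjusted p = 0.0445), which attract T cells, with a list median of 0.32.

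In AK vs NS none of 8 inflammasome partners and none of 9 autophagy conjugation genes that position the Gbp proteins was called in either direction, with list medians of 0.12 and -0.16. The same was true of 11 tested genes that lie beside the clusters but do not belong to the family, whose median was -0.05. At up to 1.98 Mb from the clusters, these neighbours did not move with the Gbp genes as a list.

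Markers of leukocytes were read in the same samples. The summed level of 8 macrophage markers was 1416 to 4805 CPM in NS with a median of 2069, and 1472 to 8181 CPM in AK with a median of 4227, and 1 of the 8, Fcgr1, was called higher in AK (1.49 ± 0.39, adjusted p = 0.0356). Most of that sum was Lyz2, with means of 2139.9 CPM in NS and 3656.6 CPM in AK, which was not called (0.76 ± 0.40, adjusted p = 0.248). The macrophage markers with negative values were Csf1r (-0.51 ± 0.22) and Cd163 (-0.08 ± 0.66), neither of them called. The summed level of 8 natural killer cell markers was 45.5 to 144 CPM in NS and 78.7 to 249.7 CPM in AK, highest in AK 13, and none of the 4 tested was called. The summed level of 7 T cell markers was 61.5 to 213 CPM in NS and 31.2 to 194 CPM in AK, with none of 5 called. Of 9 keratinocyte markers, 2 were called lower in AK, Lor by -1.71 ± 0.34 (adjusted p = 0.017) and Flg2 by -2.12 ± 0.49 (adjusted p = 0.0238), genes of the outermost layers. No marker of dendritic, neutrophil or endothelial cells was called in AK vs NS, and 1 of 7 fibroblast markers, Thy1, was called lower. None of these markers was at 0 across a group, and their part in the Gbp levels was not tested.

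The second comparison was cSCC with NS, where lesion and irradiation likewise cannot be told apart. All 8 fold changes were positive, but Gbp3 alone was called, at 1.65 ± 0.53 on the log2 scale (SE, adjusted p = 0.0426), which is 3.13-fold. Of all 12097 genes tested, 11.7% were called higher in cSCC and 7.65% lower, so 1 of 8 was close to the share over the whole table. The median of the 8 genes was 1.1, against 0.14 over all genes tested.

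Gbp4 just missed the threshold at 1.42 ± 0.48 (SE, adjusted p = 0.0519). Gbp2 and Gbp8 both had a log2 fold change of 1.18, with standard errors of 0.62 and 0.67 and adjusted p of 0.192 and 0.234. The remaining 4 genes lay between 0.87 for Gbp7 and 1.03 for Gbp6, with adjusted p from 0.158 to 0.289. Gbp9, at 0.93 ± 0.46 (SE, adjusted p = 0.168), was the 1 gene with every cSCC sample above every NS sample, which 2.7% of all genes tested also showed. The 95% interval of Gbp2 ran from -0.14 to 2.50 and that of Gbp7 from -0.02 to 1.77, so both intervals reach from below 0 to above the AK vs NS values of these genes.

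The Gbp3 call was lost in 8 of the 12 fits that left out 1 sample, namely without NS 1, NS 2, NS 4, NS 5, NS 6, NS 9, cSCC 19 or cSCC 21, and without cSCC 19 its log2 fold change was 0.96 (adjusted p = 0.247). Gbp4 was called without NS 2, NS 7 or cSCC 18. Without cSCC 20 and cSCC 21, the libraries with lung and heart muscle markers, Gbp3 was at 2.07 ± 0.62 (adjusted p = 0.0462). With the haemoglobin genes left out, Gbp3 was at 1.61 ± 0.53 (adjusted p = 0.0488). Gbp8 was at 0.29 ± 0.75 (adjusted p = 0.833) without cSCC 19.

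Beside this, 2 of 13 signalling genes were called higher in cSCC than in NS and 1 lower. Irf1 rose by 1.26 ± 0.33 (adjusted p = 0.0187) and Irf7 by 1.58 ± 0.46 (adjusted p = 0.0284), while Nlrc5, the activator of class I antigen presentation genes, changed by -2.06 ± 0.55 (adjusted p = 0.0197) on the log2 scale. Tgtp1 and Tgtp2, at 1.87 ± 0.59 and 1.71 ± 0.57 (adjusted p = 0.0396 and 0.0475), were the 2 called of 12 immunity-related GTPases. Of the inflammasome partners, 2 of 9 were called higher and 1 lower: the cytokine Il1b by 5.24 ± 0.55 (adjusted p = 0.000297), the pore protein gene Gsdmd by 1.5 ± 0.50 (adjusted p = 0.0485) and the cytokine Il18 by -2.76 ± 0.71 (adjusted p = 0.0169).

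Cell type markers differed between cSCC and NS as well. Of 8 endothelial markers 7 were called higher, and of 9 keratinocyte markers 4 were called lower (Krt1, Krt10, Lor and Flg2, genes of the differentiating layers) and 1, Dsg3, higher. The summed endothelial level was 44.8 to 124 CPM in NS and 124 to 638 CPM in cSCC, with a cSCC median of 203. It was highest in cSCC 21, the library with the heart muscle markers, and the part of that tissue in it was not tested. The basal keratinocyte genes Krt5 and Krt14 were at 0.38 ± 0.46 and 0.39 ± 0.55 on the log2 scale and were not called. The part of these markers in the Gbp values was not tested.

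The third comparison was cSCC with AK, and these 2 comparisons share samples with the first, so their values are given side by side only. No Gbp gene was called by edgeR's quasi-likelihood test, none had an unadjusted p under 0.05, and DESeq2 also called 0. The study's own criterion, a t statistic without adjustment and the same fold limits, called 1, Gbp7, lower in cSCC. Of all 12032 genes tested, 16% were called higher in cSCC and 8.34% lower. The median of the 8 genes was -0.6, against 0.17 over all genes tested.

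Of the 8 fold changes 7 were negative, from -0.16 for Gbp5 to -0.87 for Gbp8, and Gbp3 was at 0.24 ± 0.43 (SE, adjusted p = 0.718). Gbp7 came closest to the threshold at -0.80 ± 0.37 (SE, adjusted p = 0.131), with a 95% interval from -1.60 to 0.00. The interval of Gbp2 ran from -1.73 to 0.61 and that of Gbp8 from -2.34 to 0.59, so both intervals hold 0, and that of Gbp8 also holds differences beyond -2. For all 8 genes the AK and cSCC samples overlapped, while 6.84% of all genes tested had every cSCC sample below every AK sample. Without cSCC 19, Gbp7 was called lower, at -1.29 (adjusted p = 0.0245), and Gbp8 was at -1.79 (adjusted p = 0.104). Without AK 13, Gbp8 was at -0.26 (adjusted p = 0.771).

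Stat2 was called lower in cSCC than in AK, by -1.34 ± 0.32 (adjusted p = 0.0104) on the log2 scale, as was Nlrc5 by -2.32 ± 0.53 (adjusted p = 0.00789), and Irf7 was called higher by 1.45 ± 0.39 (adjusted p = 0.0162). Among 13 immunity-related GTPases, Iigp1 at -1.47 ± 0.48 (adjusted p = 0.0371) and Irgm2 at -1.40 ± 0.37 (adjusted p = 0.0156) were called lower and none higher. All 8 endothelial markers and 4 of 8 neutrophil markers were called higher in cSCC than in AK, while 4 of 9 keratinocyte markers (Krt1, Krt10, Lor and Flg2), 2 of 4 tested natural killer cell markers and 1 of 5 T cell markers were called lower. The summed endothelial level was 46 to 113 CPM in AK, and the highest cSCC value was that of cSCC 21, with its heart muscle markers. The part of the cell type markers in the Gbp values was not tested.

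The make-up of the family was read as the share of each gene. Of the counts of the 8 genes, Gbp2 gave 34.0 ± 7.13% in the 8 NS samples, 36.3 ± 4.31% in the 8 AK samples and 35.2 ± 17.6% in the 4 cSCC samples (SD). Gbp7 gave 26.5 ± 6.81%, 25.2 ± 5.21% and 19.3 ± 4.85%, and Gbp6 gave 14.1 ± 5.04%, 15.6 ± 3.05% and 18 ± 15.7%. Between NS and AK the mean shares of these 3 genes differed by less than the SD of either group. The mean share of Gbp5 was 4.1 ± 3.06% in NS and 2.14 ± 0.471% in AK (SD), a difference larger than the AK spread and smaller than the NS spread. The chromosome 5 genes together gave 15.5% to 34.6% in NS and 23.3% to 36.4% in AK.

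One library stood apart. In cSCC 21, chromosome 5 genes gave 62.0% of the counts of the family (95% Wilson interval 59.6% to 64.3%, counting error only), against 21.4% to 29.2% in the other 3 cSCC samples. Gbp6 alone gave 41.0% there and Gbp2 gave 10.6%. The ratio of Gbp2 to Gbp6 counts was 0.258 in cSCC 21, against 2.51 in cSCC 18, 5.02 in cSCC 19 and 6.48 in cSCC 20, 1.82 to 3.13 in AK, and 1.63 to 8.0 in NS. cSCC 21 is the library with 54740 CPM of heart muscle markers, and the part of this tissue in the ratio was not tested.

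**Figure D4:**
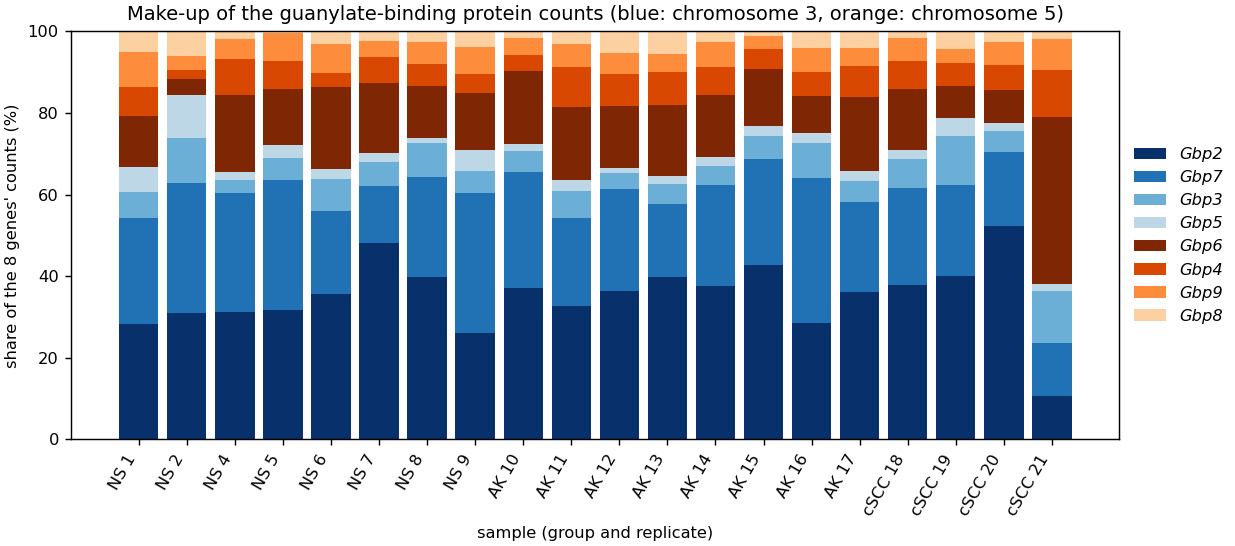
Share of the 8 genes' counts taken by each gene in each sample, in percent, with chromosome 3 genes in blue and chromosome 5 genes in orange. Gbp2 and Gbp7 make up most of the counts in all samples but cSCC 21, where Gbp6 takes 41.0%.

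Samples of 1 group that were high for 1 Gbp gene tended to be high for the others. As deviations from the group means of log2(CPM + 1), the 28 pairs of the 8 genes had Pearson r from 0.3 to 0.88 over the 20 samples, with a median of 0.71. These are descriptions over samples that share depth and, in part, mice. Against the mean of the 8 genes, the most similar of 10812 genes outside the family were Tgtp2 (r = 0.95), Tgtp1 (0.93), Iigp1 (0.89), Apol10b (0.83), Ifitm1 (0.83), Irgm1 (0.80), Apaf1 (0.80), Gm4951 (0.78), Igtp (0.77) and Cxcl9 (0.76). Of these 10 genes, 6 are immunity-related GTPases by the list used here. Irf1 ranked 34 with r = 0.66. Within groups, Tgtp2 had r = 0.95 over the 8 NS samples, 0.97 over the 8 AK samples and 0.90 over the cSCC samples. Tgtp2 was picked as the top of this ranking, so these values are not separate evidence. Apol10b had r = 0.90, 0.87 and 0.44 in the same order.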

How the data were processed

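RNA of 20 skin samples was sequenced as paired reads from Nextera libraries. The authors deposited 1 table of raw read counts per gene symbol. The submitters' processing notes name Trimmomatic 0.36, HISAT2 2.0.5 and featureCounts 1.5.2 with the builds mm9 and hg19, while the study's methods give GRCm38, so counts were used by symbol and no coordinate was read from the table. The strand setting and the handling of reads that fit several places are not given in the sources used here.

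Counts were tested with edgeR 4.0.16 (R 4.3.3): TMM factors, genes kept by filterByExpr, glmQLFit and glmQLFTest on the samples of the 2 groups compared, and Benjamini-Hochberg adjustment over all genes tested. A gene was called at an adjusted p under 0.05 with a fold change above 1.5 or below 0.67. Code was tested on simulated data. At a simulated log2 fold change of 2, the test recovered 91.7% of the changed genes in AK vs NS. Recovery was 30.4% in cSCC vs NS and 45.7% in cSCC vs AK, so fewer calls there do not by themselves show smaller changes. Levels are CPM of TMM-scaled totals, with SD over samples, and likeness used genes with a mean CPM of at least 5. By the study's methods each mouse gave 1 NS sample, and each irradiated mouse also gave 1 cSCC sample and a pair of AK samples. The 8 AK samples thus came from 4 mice, so their p-values may be too small. The compared groups also shared mice, a pairing that was not modelled and can make p-values too large.

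Alternatives were library size alone, upper quartile factors, DESeq2 1.42.0, limma 3.58.1 voom with sample weights, other filters, 1 fit over all groups, the study's criterion, no fold change limit, each sample left out, and, chosen after seeing the data, haemoglobin genes left out. Gene positions and shared 75-base words came from GENCODE release 21 of the GRCm38 mouse genome and promoters from RefSeq. The members and the gene lists were chosen with earlier results of these data known. Named genes were all members, Ifng and Irf1, some of the called list genes (at most 4 per pathway list and comparison), and the 10 most similar genes. Some uncalled markers, such as Krt5 and Lyz2, were named beside them. In the cSCC comparisons, called genes of several lists, among them the interferon receptors, were not named. The planned description of protein features was not made, and 1 gene that the rule names is not reported here.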

Additional observations from a re-analysis of the deposited data

How the results depend on the processing

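In AK vs NS, 1 Gbp gene was called with all 20 samples in 1 fit, and 2 to 8 with 1 sample left out; with a minimum of 10 counts in every sample, 5 members could be tested and all 5 were called. In cSCC vs NS, 0 were called with library size alone or no filter, 2 with DESeq2 or unadjusted p, 3 by the study's criterion, and 0 to 2 with 1 sample left out. In cSCC vs AK, 1 was called by the study's criterion and 0 to 1 with 1 sample left out. Over the whole table, fits with 1 sample left out called 1.39% to 7.79% of genes in AK vs NS. The shares were 14.2% to 25.2% in cSCC vs NS and 14.7% to 31.4% in cSCC vs AK, both directions together. The sign changed for Gbp5 in cSCC vs AK without cSCC 20 and 21, at 0.40 on the log2 scale. With 1 sample left out, log2 fold changes of Gbp5 ranged from -0.06 to 1.23 in cSCC vs NS and from -1.16 to 0.08 in cSCC vs AK, and those of Gbp3 from -0.43 to 0.49 in cSCC vs AK. The cause was not tested. Without haemoglobin genes the called members numbered 7, 1 and 0 in the 3 comparisons. Depth limits the low genes most: 3 counts correspond to 3.78 CPM in AK 12 and 3.41 CPM in cSCC 20, where Gbp5 was at 5.04 and 9.1 CPM.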
